A study of Mus musculus with 2 samples.

Results

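Among macrophages of the mouse sciatic nerve (SN), a small set of cells carried transcripts that interferon induces. Cells were taken as interferon-responding when they held at least 2 UMIs summed over *Ifit2*, *Ifit3*, *Ifit3b*, *Irf7*, *Isg15* and *Rsad2*. A UMI is a tag that marks 1 captured RNA molecule. Of 5098 cells, 60 met this rule, and the other 5038 were the comparison. The cells were chosen by the levels of these 6 genes, so those levels are described and not tested, and the tests below were made on the remaining genes.

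The cells came from Flt3-Cre LSL-YFP fl/fl mice, in which YFP marks cells whose ancestors expressed Cre from the *Flt3* promoter. CD64+ CD45int macrophages from the SNs of 19 males, 10 to 12 weeks old, were pooled and sorted as YFP- cells, read in the study as embryonic-derived, and YFP+ cells, read as derived from hematopoietic stem cells. Both groups therefore share the strain, the mice, the sex and the digestion of the nerve, and neither was treated. Each was run as 1 10x library, so the YFP- and YFP+ conditions could not be tested against each other.

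After the requirement of 500 UMIs and 200 genes per barcode, the YFP- library held 1045 cells with a median of 2233 UMIs and 1050 genes. In the YFP+ library 4053 cells remained, with a median of 1484 UMIs and 774 genes. These cells held 66.2% of the 3653688 UMIs of the YFP- library and 72.0% of the 9365598 UMIs of the YFP+ library. Barcodes called as cells in both libraries numbered 7, and none of the 60 cells sat on one of them.

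Type I interferons bind the receptor chains encoded by *Ifnar1* and *Ifnar2*, and the kinases JAK1 and TYK2 then activate transcription factors, STAT2 and IRF9 among them, which bind DNA elements called interferon-stimulated response elements (ISREs). The genes that carry such elements encode proteins that bind viral RNA, block viral entry or budding, sense nucleic acids and raise antigen presentation. Macrophages both sense and answer these cytokines, and in neural tissue cells with raised interferon-stimulated genes are a known state of activated microglia.

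Of the selecting genes, *Ifit2*, *Ifit3* and *Ifit3b* encode tetratricopeptide proteins that bind foreign RNA, *Isg15* a ubiquitin-like modifier, *Rsad2* the antiviral enzyme viperin and *Irf7* the transcription factor that amplifies interferon production. *Ifit2*, *Ifit3* and *Ifit3b* lie side by side on chromosome 19, and *Ifit3* and *Ifit3b* are near-identical copies, so the division of reads between them is uncertain. An ISRE was searched for as the letters GAAA, any 2 bases and GAAA again, on either strand of RefSeq promoter windows (GRCm38.p6), which run from 250 bases before to 50 bases after a transcript start. These letters stood in the windows of 4 of the 6 selecting genes, against 3.99% of the 27025 genes in the table. The windows of these 4 genes are shown because they hold the letters, together with *Bst2*, a gene outside the rule, and *Irf7*, whose window held no match. They are chr19:34583279-34583578 (plus strand) for *Ifit3*, chr19:34607707-34608006 (plus strand) for *Ifit3b*, chr4:156200769-156201068 (minus strand) for *Isg15*, chr12:26456403-26456702 (minus strand) for *Rsad2*, chr8:71537423-71537722 (minus strand) for *Bst2* and chr7:141266375-141266674 (minus strand) for *Irf7*. Each is written 5′ to 3′ on the strand of its gene, and capitals mark the letters that matched, which read TTTC, 2 bases and TTTC where the match lies on the opposite strand.
Ifit3: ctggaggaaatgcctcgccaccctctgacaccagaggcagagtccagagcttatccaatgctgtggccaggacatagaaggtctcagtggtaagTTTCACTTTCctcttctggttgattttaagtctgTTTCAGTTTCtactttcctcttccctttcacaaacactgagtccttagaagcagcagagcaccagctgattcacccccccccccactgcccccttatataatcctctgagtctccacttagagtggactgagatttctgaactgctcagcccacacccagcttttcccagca
Ifit3b: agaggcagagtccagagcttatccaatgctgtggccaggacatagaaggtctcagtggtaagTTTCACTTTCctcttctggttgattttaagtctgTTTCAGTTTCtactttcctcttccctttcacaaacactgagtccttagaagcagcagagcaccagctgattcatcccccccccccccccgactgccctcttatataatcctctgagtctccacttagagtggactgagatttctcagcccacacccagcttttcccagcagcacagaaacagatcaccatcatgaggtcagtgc
Isg15: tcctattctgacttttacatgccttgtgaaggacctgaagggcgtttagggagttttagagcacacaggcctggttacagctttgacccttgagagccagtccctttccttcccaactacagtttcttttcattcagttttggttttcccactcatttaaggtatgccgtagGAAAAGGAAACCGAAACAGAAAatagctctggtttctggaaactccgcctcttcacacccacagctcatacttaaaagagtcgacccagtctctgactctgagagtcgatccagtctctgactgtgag
Rsad2: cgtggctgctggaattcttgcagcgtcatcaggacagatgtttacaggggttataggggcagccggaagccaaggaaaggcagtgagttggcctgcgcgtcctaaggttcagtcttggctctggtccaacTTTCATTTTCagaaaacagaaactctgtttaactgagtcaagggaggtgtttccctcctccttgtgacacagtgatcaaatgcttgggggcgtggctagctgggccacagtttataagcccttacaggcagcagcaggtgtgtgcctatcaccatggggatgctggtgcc
Bst2: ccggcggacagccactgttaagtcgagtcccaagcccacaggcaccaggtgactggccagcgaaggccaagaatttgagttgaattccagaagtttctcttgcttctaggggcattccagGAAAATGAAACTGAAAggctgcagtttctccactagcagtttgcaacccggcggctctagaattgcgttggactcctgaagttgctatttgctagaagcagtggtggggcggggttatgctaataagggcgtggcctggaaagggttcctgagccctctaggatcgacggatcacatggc
Irf7: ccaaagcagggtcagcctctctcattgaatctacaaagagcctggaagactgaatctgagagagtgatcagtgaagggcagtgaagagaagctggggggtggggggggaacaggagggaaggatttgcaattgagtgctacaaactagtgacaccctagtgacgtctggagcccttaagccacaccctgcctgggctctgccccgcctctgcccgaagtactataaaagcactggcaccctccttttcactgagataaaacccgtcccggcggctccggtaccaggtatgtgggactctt
The capitals of *Isg15* join 3 overlapping matches that begin 78, 72 and 66 bases before the start, and those of *Bst2* join a pair at 130 and 124 bases before it. *Ifit3* and *Ifit3b* each held 2 matches, and *Rsad2* held 1, all on the strand opposite to the gene. Neither the window of *Irf7* nor those of *Ifit2* held the letters, which says only that they are not within these bases.

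The 60 cells comprised 11 YFP- cells and 49 YFP+ cells. The share was 1.05% of the YFP- library (95% exact binomial interval 0.527 to 1.88) and 1.21% of the YFP+ library (0.896 to 1.60), and the intervals overlap. At least 1 UMI of the 6 genes was seen in 4.78% of YFP- and 4.61% of YFP+ cells. Just outside the rule, 39 YFP- and 138 YFP+ cells held exactly 1 UMI, and just inside it, 6 and 29 cells held exactly 2. Of these 35 cells with 2 UMIs, 18 held UMIs of 2 different genes. The rule therefore cut through the lower end of a long tail. At the upper end, 13 cells, 1 of them YFP-, held 5 or more UMIs and together 155 of the 265 UMIs that the 60 cells held.

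**Figure D1:**
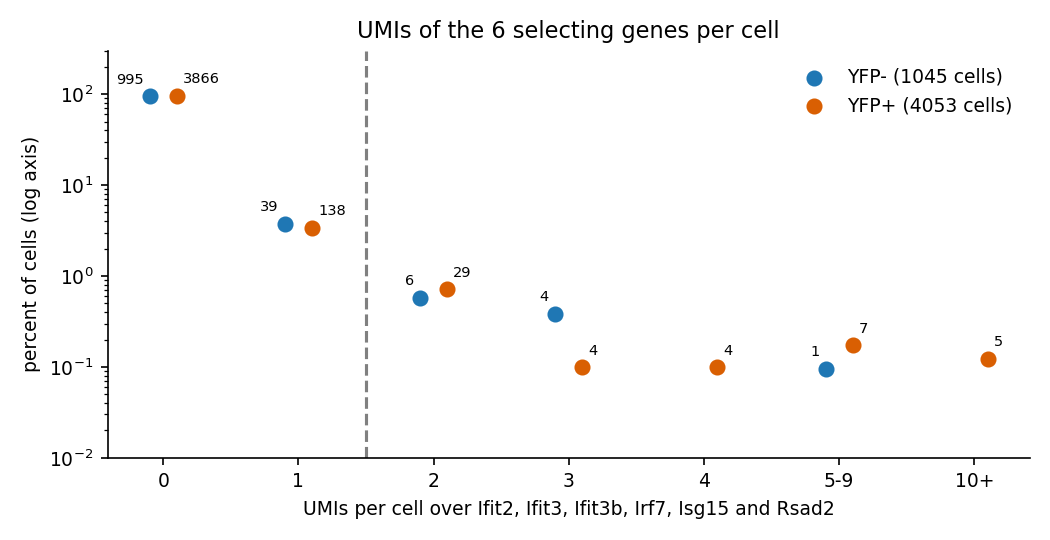
Percent of cells (log axis) by the number of UMIs each cell held over the 6 selecting genes, in the YFP- (blue) and YFP+ (orange) libraries, with the number of cells beside each point and the rule as a dashed line. Both libraries fall from 1 UMI (39 and 138 cells) to 2 UMIs (6 and 29 cells), and only the YFP+ library, which holds more cells, has cells with 10 or more.

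In the YFP+ library, cells read more deeply passed the rule more often. The 60 cells had a median of 2850 UMIs in the YFP- and 2212 UMIs in the YFP+ library, above the median of each library. The share of YFP+ cells was 0.507% of cells from 500 to below 1000 UMIs, 0.893% of those to below 2000, 1.81% of those to below 3000 and 3.58% of those with 3000 or more. In the YFP- library the same classes gave 0.667, 1.04, 0.610 and 1.79%, from 1, 3, 2 and 5 cells. When every cell was thinned to 500 UMIs, 1 YFP- cell (0.0957%, interval 0.00242 to 0.532) and 13 YFP+ cells (0.321%, 0.171 to 0.548) still met the rule. The shares of 1.05 and 1.21% are thus shares of cells read at these depths, and no order of the libraries follows from them.

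Free RNA was measured in barcodes with 10 to 100 UMIs, which hold too little RNA to be cells. There the 6 genes stood at 56.1 CPM for YFP- and 77.2 CPM for YFP+, where CPM is the number of UMIs among every 1000000 UMIs, and each UMI stands for a molecule whatever the length of its gene. The cells that did not meet the rule stood at 16.3 and 20.8 CPM. A barcode of the median depth of the interferon-responding cells made wholly of that RNA would hold on average 0.160 and 0.171 UMIs of these genes. How often free RNA alone would meet the rule was not tested, so its part in the choice of cells is not known. Antiviral effectors, the largest list tested below, stood at 5115 and 5353 CPM in these barcodes, against 3867 and 3909 CPM in the cells that did not meet the rule, and the part of free RNA in the results on this list was not tested.

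In the cells chosen, *Irf7* was the most abundant selecting gene, at 371 CPM in the YFP- cells (95% exact Poisson interval 185 to 664) and 590 CPM in the YFP+ cells (458 to 748), with intervals that overlap those of the next gene. *Isg15* stood at 236 CPM (95 to 487) and 556 CPM (428 to 710), and *Ifit3* at 202 CPM (74.3 to 441) and 347 CPM (248 to 473). *Ifit2* stood at 169 and 217 CPM, and its 5 UMIs in the YFP- library all came from 1 cell. *Ifit3b* was lower, at 33.7 and 148 CPM. *Rsad2* was not seen in the 11 YFP- cells, which allows a level of up to 101 CPM by 3 counts in the summed cells and 124 CPM by the interval used for the other genes, and stood at 182 CPM in the 49 YFP+ cells. These levels and intervals cover counting error only, since each condition is 1 library.

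To keep a gene out of its own selection, each was also read in cells that held at least 2 UMIs over the other 5 genes. Over both libraries *Irf7* stood at 445 CPM in the 38 cells so chosen and at 8.60 CPM in the rest, a log2 ratio of 5.69 (conditional exact interval 5.12 to 6.25). For *Isg15* the levels were 445 and 11.8 CPM, a log2 ratio of 5.24 (4.69 to 5.75), and for *Ifit3* 253 and 4.76 CPM, a log2 ratio of 5.73 (5.02 to 6.43). *Ifit3b* gave a log2 ratio of 6.06, and *Rsad2* gave 5.99. Reads can be shared between *Ifit3* and *Ifit3b*, so neither of these genes was fully kept out of its own selection. For *Ifit2* the ratio was 7.05, from 25 UMIs in 10 of 59 chosen cells, and these 10 were YFP+. In the YFP- library the counts were small, with 3 UMIs of *Irf7* in 7 chosen cells and none of *Ifit2* or *Rsad2*.

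The 60 cells differed widely in how many of these genes they showed. A single selecting gene was seen in 19 cells, 2 in 24, 3 in 9, 4 in 3, 5 in 3 and all 6 in 2 cells. The cell with the most, from the YFP+ library, held 34 UMIs of the 6 genes among 2667 UMIs, 12 of them *Isg15*. The next held 23 UMIs, and both cells with all 6 genes were YFP+.

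The label of macrophage held for 54 of the 60 cells. Macrophage markers (14 genes, among them *Csf1r*, *Adgre1*, *C1qa* and *Mertk*, with *Apoe* the most abundant) made up 18.2 to 120 of every 1000 UMIs in these 54 cells. In the remaining 6 cells they made up 1.24 to 3.19 of every 1000 UMIs. Of these 6, 4 YFP+ cells held 96 to 125 UMIs of mural cell markers such as *Acta2*, *Tagln* and *Myh11*, genes of the contractile apparatus of vessel walls. The other two, 1 YFP+ and 1 YFP-, held 97 and 108 UMIs of Schwann cell markers such as *Mbp* and *Pmp22*, genes of myelin. These 6 cells go against the label, and most counts of called genes below are therefore given for all 60 cells and for 54, where cells with 10 or more UMIs over the lists of other cell types were left out of both classes (6 chosen and 73 others). This threshold was chosen after the values were seen. Without them the shares were 0.967% and 1.10%. Markers of T and NK cells and of mast cells were at 0 in all 60 cells. Of the neutrophil list 2 UMIs of *Csf3r* were seen. Of the 10 blood monocyte markers, 2, *Ly6c2* and *Vcan*, were at 0 in every cell of both libraries. They therefore cannot set the 60 cells apart from the others. The whole monocyte list, led by *F13a1*, stood at 1316 CPM for YFP- and 1563 CPM for YFP+ chosen cells against 1428 and 1821 CPM in the others.

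To ask which genes outside the rule went with it, UMIs were summed per library and class, and the 4 sums were compared with edgeR's quasi-likelihood test with the library as a block. Of 9756 genes tested, 82 were higher (0.841%) and 5 were lower (0.0513%) in the 60 cells at a Benjamini-Hochberg adjusted p under 0.05. With the 54 cells, 49 of 9649 genes were higher (0.508%) and 5 were lower (0.0518%), and 43 of the higher genes were shared by both fits. Of the 82 genes, 31 were on a list of interferon genes, and of the 49, 35 were. In either fit these lists held few of the genes tested. They were 38 antiviral effectors, 19 sensors, 16 signalling genes, 16 MHC class I genes, 4 GTPases and 4 chemokines. The lists were chosen with earlier results of these data known, so the overlap is a description. No UMI in the YFP- chosen cells stood behind 20 of the 82 calls and 1 of the 49, which therefore rest on the YFP+ library. The test has 1 residual degree of freedom per gene and borrows its spread from all genes. DESeq2, run on the same sums, called 15 genes higher and none lower. The edgeR test works on sums, so a few cells can carry a gene, and both libraries came from the same pooled mice, so the p-values do not speak for other mice.

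Antiviral effectors held more calls than any other list. Of 50 listed genes 38 could be tested, and 19 were higher in the 60 cells and 20 in the 54, with none lower in either, while DESeq2 called 1, *Ifi27l2a*. Their median log2 ratio was 2.09 with 60 cells and 2.24 with 54, against -0.01 and -0.06 over all genes tested. The sum of the list was 12416 CPM in the YFP- interferon-responding cells against 3867 CPM in the other YFP- cells, and 15323 against 3909 CPM in the YFP+ library. With the 54 cells it was 12753 against 3876 CPM and 14727 against 3917 CPM.

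*Ifi27l2a* (chr12:103442167-103443680, GRCm38), an interferon-inducible gene, stood at 3340 CPM for YFP- and 3933 CPM for YFP+ interferon-responding cells, against 524 and 494 CPM in the other cells. Both libraries were high in the chosen cells, and the log2 ratio was 2.89 ± 0.21 (SE; edgeR adjusted p = 4.29e-39). The 6 cells with mural or Schwann RNA held 221 of its 552 UMIs, 80 of them in 1 mural-marked cell, and with the 54 cells the ratio was 2.49 ± 0.16. *Ifitm3* (chr7:141009586-141010770), which restricts viral entry and is abundant in nerve macrophages, stood at 3678 and 3707 CPM against 1028 and 1085 CPM, with a log2 ratio of 1.85 ± 0.20 (edgeR adjusted p = 1.33e-16; 1.86 with 54 cells). Its neighbour *Ifitm2* did not pass the test, at 574 and 998 CPM against 878 and 880 CPM.

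*Bst2*, which encodes tetherin and holds budding virus at the cell surface, stood at 1215 and 877 CPM against 222 and 216 CPM. Its log2 ratio was 2.25 ± 0.24 (edgeR adjusted p = 2.65e-18; 2.23 with 54 cells). *Ly6e*, a surface protein gene that interferon induces, stood at 877 and 651 CPM against 167 and 133 CPM, and its log2 ratio was 2.38 with 60 and 2.43 with 54 cells. Both genes were high in the chosen cells of either library, and both lie outside the *Ifit* locus, *Bst2* at chr8:71534255-71537456.

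*Oasl2* (chr5:114896936-114912234), of the oligoadenylate synthetase family that answers double-stranded RNA, had the highest ratio among genes of the interferon lists with at least 20 CPM over all cells, at 3.55 ± 0.41 (edgeR adjusted p = 2.20e-15). In the YFP- library this rested on 2 UMIs, at 67.5 CPM against 31.8 CPM, and in the YFP+ library on 45 UMIs, at 391 against 23.4 CPM. *Oas1a*, whose reads can be shared with *Oas1g*, rose by 2.97 ± 0.75 and *Zbp1*, a sensor of left-handed nucleic acid, by 3.67 ± 0.79. Named members with log2 ratios between 1.91 and 2.86 were *Phf11d*, *Ms4a4c*, *Rtp4*, *Slfn5*, *Xaf1*, *Slfn8*, *Parp14*, *Sp100* and *Phf11b*. All of these kept their call with the 54 cells. In the YFP- library alone several rested on 1 or 2 UMIs, and there the log2 ratio was 0.16 for *Phf11d*, 0.38 for *Sp100* and 0.82 for *Phf11b*, against 3.36, 2.22 and 2.08 in the YFP+ library.

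**Figure D2:**
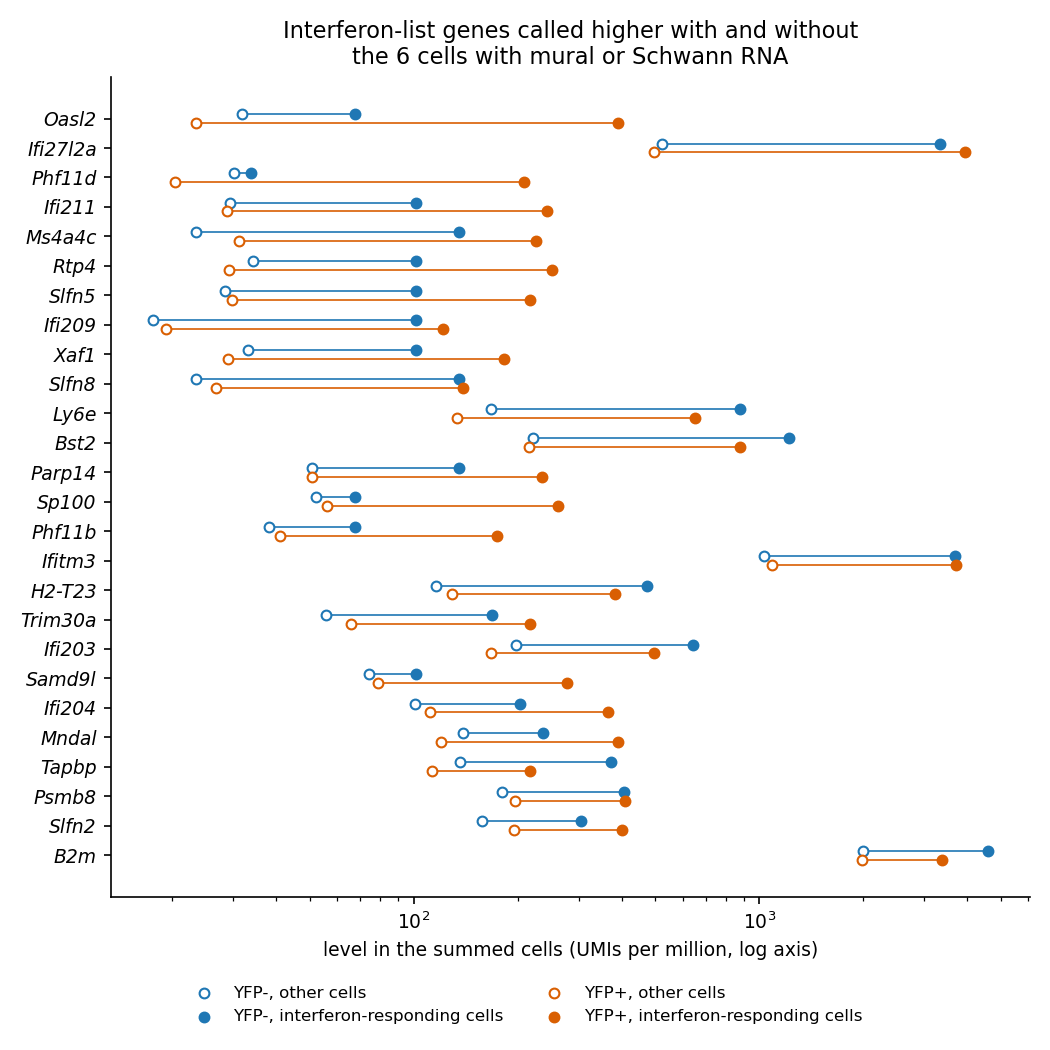
Levels in CPM (log axis) of 26 genes on the interferon lists that were called higher with 60 and with 54 cells and held at least 20 CPM over all cells, with open circles for the other cells and filled circles for the 60 interferon-responding cells of the YFP- (blue) and YFP+ (orange) libraries. In both libraries the filled circle lies to the right of the open circle for each of the 26 genes, as for *Bst2* at 1215 and 877 CPM against 222 and 216 CPM.

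Several listed antiviral genes were too rare to test. *Ifit1*, the neighbour of the selecting *Ifit* genes, stood at 67.5 and 95.5 CPM in the interferon-responding cells and at 2.93 and 2.71 CPM in the others. *Mx1*, a GTPase that blocks incoming virus, was seen with 8 UMIs in the YFP+ and none in the YFP- chosen cells, and *Usp18*, which removes ISG15 and damps the receptor, with 9 and none.

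Sensors of nucleic acid followed. Of 19 tested, 7 were higher with 60 and with 54 cells, and the median log2 ratio was 1.48 and 1.67. All 7 belong to the family of interferon-inducible p200 proteins encoded on chromosome 1, whose members are similar in sequence, so that the division of reads among them is uncertain. *Ifi213* stood at 236 and 208 CPM against 13.8 and 12.4 CPM, with a log2 ratio of 4.13 ± 0.60 (edgeR adjusted p = 1.98e-09; 4.27 with 54 cells), and it was high in both libraries. *Ifi203* stood at 641 and 495 CPM against 197 and 168 CPM, a log2 ratio of 1.66 ± 0.26. *Ifi208*, *Ifi209*, *Ifi211*, *Ifi204* and *Mndal* were higher by 4.44, 2.68, 2.86, 1.58 and 1.48, while DESeq2 called neither *Ifi209* nor *Ifi211*. The RNA helicases *Ddx58* and *Ifih1*, which encode RIG-I and MDA5, gave ratios of 2.45 and 2.38 that did not pass (edgeR adjusted p = 0.142 and 0.684). *Tlr7*, the endosomal receptor of single-stranded RNA, gave 0.04 ± 0.46.

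Guanylate-binding proteins and immunity-related GTPases, which attack vacuoles of intracellular microbes, were mostly too rare to test. Of 15 genes 4 could be tested, and 1 was higher with 60 cells and 2 with 54. *Ifi47* stood at 67.5 and 122 CPM against 12.6 and 11.6 CPM (log2 ratio 3.24 ± 0.78, edgeR adjusted p = 0.00561). *Irgm1* passed with 54 cells (edgeR adjusted p = 0.0441) and not with 60 (0.0701).

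Genes of MHC class I presentation had lower ratios. Of 16 tested, 4 were higher with 60 and 5 with 54 cells, with median log2 ratios of 0.95 and 0.99. *B2m*, the light chain of class I molecules, stood at 4589 and 3368 CPM against 1997 and 1986 CPM, a log2 ratio of 1.01 ± 0.20 (edgeR adjusted p = 0.000122). *H2-T23*, a non-classical class I gene, gave 1.78, the immunoproteasome subunit *Psmb8* 1.14 and *Tapbp*, which loads peptide, 1.17. *H2-D1* passed with 54 cells, at 0.75 (edgeR adjusted p = 0.00196), and not with 60, at 0.64 (0.179). Class I genes resemble each other, so reads may be split among them. MHC class II genes, at 50845 CPM for YFP- and 52097 CPM for YFP+ chosen cells against 41712 and 54596 CPM, turned to higher in YFP+ with the 54 cells (52474 and 60548 CPM against 41811 and 55004 CPM). Their median log2 ratio was 0.12 with 60 and 0.22 with 54 cells, and they held no edgeR call among 8 tested. Of these 8, 0 with 60 and 1 with 54 cells was higher at an unadjusted edgeR p under 0.05. Such a p was held by 375 of all 9756 genes with 60 cells and 312 of 9649 with 54. *Cd74* gave a log2 ratio of 0.15 ± 0.24.

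Genes of the signalling chain itself held no edgeR call among 16 tested, with 60 or with 54 cells. In either fit 2 of the 16 were higher at an unadjusted edgeR p under 0.05. Over all genes tested, 375 of 9756 with 60 cells and 312 of 9649 with 54 had such a p. The median log2 ratio of the signalling genes was 0.22 and 0.33. *Ifnar1* stood at 67.5 and 86.8 CPM against 111 and 108 CPM, and *Ifnar2* at 135 and 139 CPM against 132 and 155 CPM. *Stat2* gave a log2 ratio of 2.07 ± 0.68 (edgeR adjusted p = 0.192), on 15 UMIs in the chosen cells, and did not pass after adjustment over all genes tested. *Irf9* gave 0.42 ± 0.75. Of the 14 interferon genes listed, *Ifnb1* and *Ifng* among them, 13 were at 0 in all 5098 cells, and *Ifnz* was seen outside the 60 cells alone.

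Of 4 interferon-induced chemokines tested, none was called by edgeR with 60 cells. At an unadjusted edgeR p under 0.05, 1 of the 4 was higher, against 375 of all 9756 genes under that p. The sum of the 8 listed genes was 337 CPM (162 to 620) against 788 CPM in the YFP- library. In the YFP+ library it went the other way, at 1554 CPM (1335 to 1799) against 766 CPM, and the difference was not tested. *Cxcl10*, a T cell attractant, was seen with 4 UMIs in 3 of the YFP+ chosen cells and none of the YFP-. *Ccl12*, a monocyte attractant, was called with 54 cells (log2 ratio 0.77, edgeR adjusted p = 0.0375) and not with 60 (0.55, 0.914), and it stood at 135 against 532 CPM in the YFP- and at 1129 against 458 CPM in the YFP+ library. Among inflammatory cytokine genes 1 of 9 was higher with 60 and with 54 cells, *Ccl4*, at 742 and 460 CPM against 159 and 263 CPM, and its UMIs came from 11 of the 60 cells, 26 of them from 1 cell.

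Among macrophage markers, none of 14 passed the edgeR test with 60 cells. There 2 were higher and 2 lower at an unadjusted edgeR p under 0.05, a level that 375 of all 9756 genes tested reached. With 54 cells *Fcgr1*, which encodes the CD64 antigen used for sorting and which interferon can raise, was higher (log2 ratio 1.35, edgeR adjusted p = 0.00244). The list as a whole stood at 40453 CPM against 48870 CPM in the YFP- and 34995 against 43067 CPM in the YFP+ library with 60 cells, and at 41672 against 49107 and 40544 against 43427 CPM with 54. *C1qa* gave 0.02 ± 0.21, *Csf1r* -0.17 ± 0.23 and *Apoe* -0.54 ± 0.23. *Fcgr4*, another Fc receptor gene, stood at 67.5 and 200 CPM against 25.5 and 28.3 CPM (log2 ratio 2.61 ± 0.53, edgeR adjusted p = 0.000158), and *Cd72*, a lectin gene, gave 2.09 ± 0.45. None of the 11 genes on the list for *Lyve1* and *Cd209* macrophages was called by edgeR. With 60 cells, 1 of these genes was higher and 3 lower at an unadjusted edgeR p under 0.05, against 375 of all 9756 genes. The sum of this list went opposite ways, at 3947 CPM (3265 to 4731) against 3073 CPM in the YFP- library and at 1936 CPM (1690 to 2207) against 3159 CPM in the YFP+ library, and the difference was not tested. The 4 tested monocyte markers held no call either, with 1 higher and 1 lower at an unadjusted edgeR p under 0.05. The same 375 of 9756 genes are the comparison there.

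In the other direction, 5 genes were lower in the 60 cells. No gene was called lower by DESeq2, without the library block, against the 3 nearest cells in depth, at 1000 to 3000 UMIs or without cells with 2 or more UMIs of other cell types. *Ctsd*, a lysosomal protease gene, stood at 33.7 and 60.8 CPM, from only 1 and 7 UMIs, against 209 and 169 CPM. Its log2 ratio was -1.66 ± 0.46 (edgeR adjusted p = 0.0382). *Junb*, an immediate early gene that rises when tissue is dissociated, stood at 101 and 495 CPM against 741 and 814 CPM, a log2 ratio of -1.11 ± 0.26 (edgeR adjusted p = 0.00388). *Pf4*, a chemokine gene of resident macrophages, gave -0.77 ± 0.21. These 3 kept their call with 54 cells, where 5 genes were lower in all, while *Stab1*, a scavenger receptor gene, and *Jund* lost it (edgeR adjusted p = 0.0688 and 0.0507). Over the list of genes that respond to dissociation, 2 of 14 were lower with 60 cells and 1 with 54, and the median log2 ratio was -0.47 and -0.40. The sum of that list was 3239 CPM for YFP- and 7674 CPM for YFP+ chosen cells against 8451 and 9092 CPM in the others. Its part in the interferon results was not tested.

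Several genes called with 60 cells came from the 6 cells of other types. *Myh11* gave a log2 ratio of 6.94, from 85 UMIs in 4 of the 60 cells, and *Tagln* 6.02, from 164 UMIs in 6. *Csrp1* and *Tpm1*, of smooth muscle, gave 3.85 and 3.41 and fell to -0.16 and 0.38 with 54 cells. *Mbp*, of myelin, gave 2.07 and fell to 0.14. *Cryab* and *Sparc* lost their calls in the same way. With 60 cells 3 of 3 mural and 3 of 5 Schwann markers tested were higher. With 54 cells no mural marker had enough UMIs to be tested, and 0 of 3 Schwann markers passed the edgeR test. Of these 3, 1 was lower at an unadjusted edgeR p under 0.05, as against 312 of all 9649 genes with such a p.

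**Figure D3:**
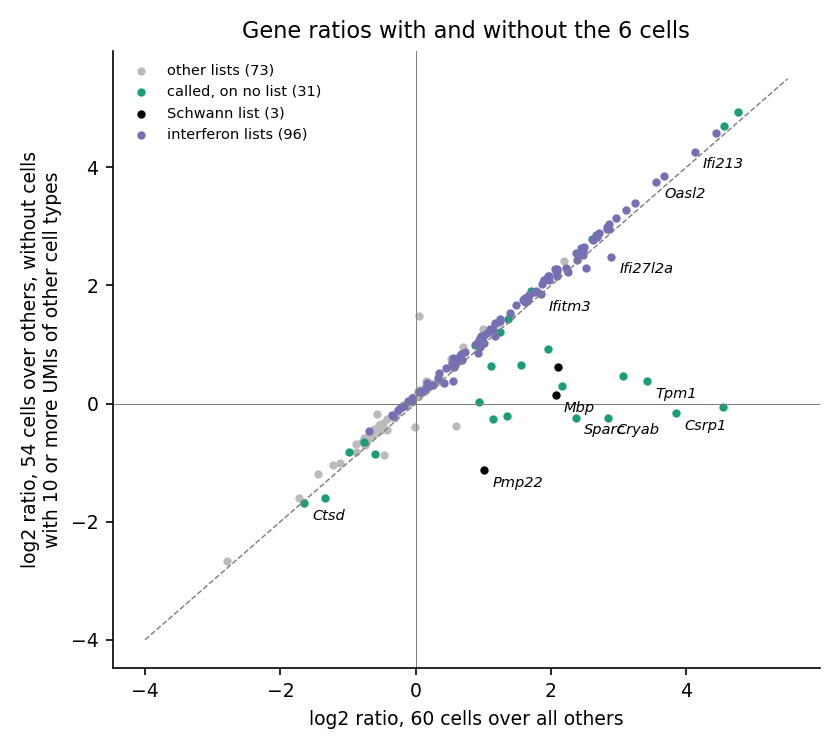
Log2 ratios of 203 listed or called genes that could be tested with 60 and with 54 cells, in the 60 interferon-responding cells over all other cells (x axis) against those in 54 cells over others when cells with 10 or more UMIs of other cell types are left out (y axis), with 96 interferon-list genes in purple, 3 Schwann list genes in black, 31 called genes on no list in green, 73 genes of other lists in grey and equal values on the dashed line. Interferon-list genes such as *Oasl2* (3.55 and 3.76) lie near the line, while *Csrp1* (3.85 and -0.16) and *Mbp* (2.07 and 0.14) fall below it, and 2 genes with no UMI in the 54 cells and all genes too rare to test there, every mural marker among them, are not drawn.

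The same pattern was seen cell by cell. Antiviral effectors, none of which is in the rule, made up 2.13 to 34.3 of every 1000 UMIs in the 11 YFP- cells, with a median of 11.4, and 2.12 to 43.8 in the 49 YFP+ cells, with a median of 13.1. In the 3 other cells of the same library nearest in UMI total to each of them, the medians were 3.70 and 3.17, close to the 3.45 and 3.43 of all others. Without the 6 cells of other types the medians of the chosen cells were 12.8 and 12.98. Of the 11 YFP- cells 6 lay above the 95th percentile of the other cells (8.74), and of the 49 YFP+ cells 42 did (8.77). The ranges overlap, since the highest value among the other cells was 18.1 in the YFP- and 29.4 in the YFP+ library.

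Antiviral effectors also graded with the number of selecting UMIs. Over both libraries the list stood at 3796 CPM in cells with 0, 6153 CPM with 1, 11557 CPM with 2, 14084 CPM with 3 to 4, 19706 CPM with 5 to 9 and 29864 CPM with 10 or more UMIs. Without the cells of other types, the class with 5 to 9 UMIs stood at 16989 CPM and the order was the same. Cells just outside the rule thus lay above those with none. Within the YFP- library the order broke at the top, where 1 cell with 6 UMIs, 5 of them *Ifit2*, stood at 6667 CPM. MHC class I genes stood at 4408 CPM in cells with 0 and 12383 CPM in cells with 10 or more selecting UMIs, and sensors of nucleic acid at 914 and 6829 CPM. Between the ends the order was not kept in all 60 cells, as MHC class I genes stood at 8813 CPM with 3 to 4 and 8562 CPM with 5 to 9 UMIs, sensors at 2650 and 2344 CPM, and antiviral effectors other than *Ifitm3* and *Ifi27l2a* at 7258 and 6888 CPM. Without the cells of other types the class with 5 to 9 UMIs stood at 11825, 4081 and 9660 CPM.

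**Figure D4:**
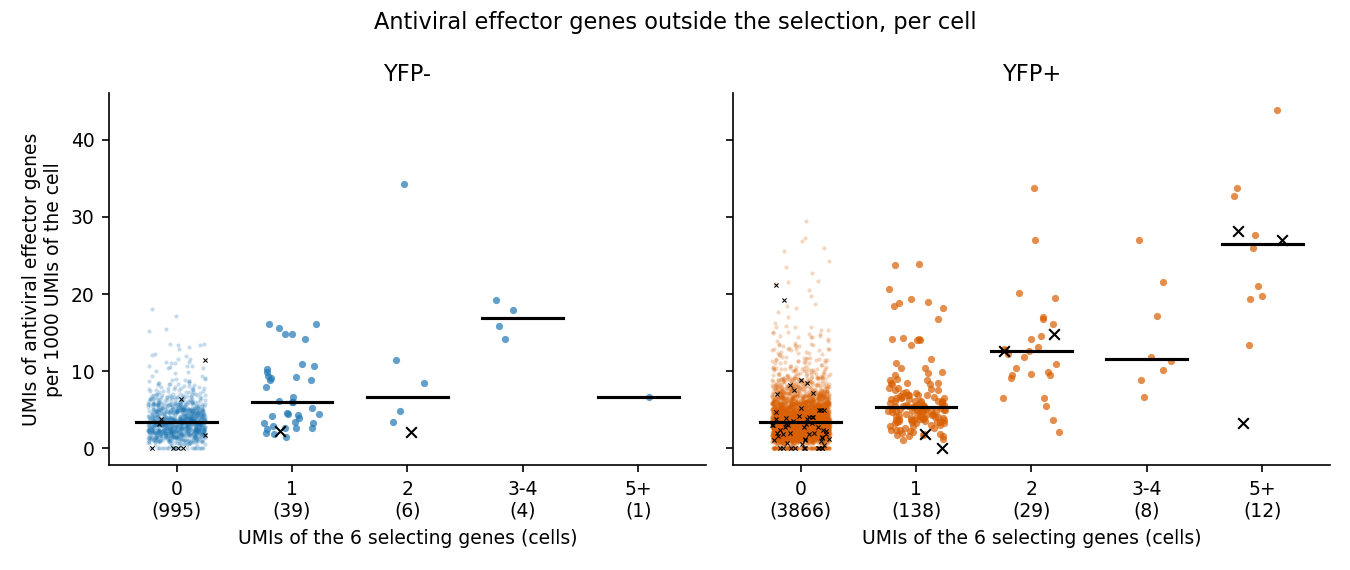
UMIs of antiviral effector genes per 1000 UMIs of each cell, by the UMIs of the 6 selecting genes in that cell, for the YFP- library (left, blue) and the YFP+ library (right, orange), with medians as black lines, cells with 10 or more UMIs of other cell types as crosses and numbers of cells in brackets. Cells with no selecting UMI center near 3.4, and the 12 YFP+ cells with 5 or more center at 26.5.

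Between the libraries, the interferon-responding cells could be compared only as 2 sums, of 29639 UMIs for YFP- and 115189 UMIs for YFP+. *Ifitm3* (log2 ratio of YFP+ over YFP- 0.01, interval -0.30 to 0.33) and *Bst2* (-0.47, -1.03 to 0.12) had intervals that span 0. *Ifi27l2a* gave 0.24 (-0.08 to 0.56) with all 60 cells, and with the 54 cells it turned to -0.55 (-0.90 to -0.20), from 2350 CPM for YFP+ over 3449 CPM for YFP-. The sum of antiviral effectors was 15323 CPM for YFP+ and 12416 CPM for YFP-, a log2 ratio of 0.30 (0.14 to 0.47), and with the 54 cells it was 0.21 (0.04 to 0.38). The 6 selecting genes stood at 2040 and 1012 CPM. MHC class I genes gave -0.14 (-0.35 to 0.06). Other lists had intervals off 0 with 60 and with 54 cells, among them interferon-induced chemokines, at 2.20 (1.29 to 3.29), GTPases, at 1.15 (0.09 to 2.42), the dissociation list, at 1.24 (0.94 to 1.56), and the *Lyve1* and *Cd209* list, at -1.03 (-1.36 to -0.69), and the cell cycle list, at 0.81 (0.26 to 1.40). With 60 cells alone the interval was off 0 for macrophage markers, at -0.21 (-0.30 to -0.11), mural markers, at 5.78, and Schwann markers, at -1.90, and with 54 cells alone for sensors, at 0.57 (0.18 to 0.98), and MHC class II genes, at 0.21 (0.12 to 0.29). *Oasl2* gave 2.53 (0.60 to 5.62). These intervals cover counting error only, and the spread between animals is not known from 1 library. The other cells differed between the libraries as well. Without cells of other types their MHC class II genes stood at 55004 CPM for YFP+ and 41811 CPM for YFP-. Their macrophage markers, with all cells, stood at 43067 and 48870 CPM. Chemokines, at 766 and 788 CPM, and the *Lyve1* and *Cd209* list, at 3159 and 3073 CPM, were closer there. No ratio was set against that of the other cells.

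To see which cells the interferon genes fell in, cells were clustered without the selecting genes and the interferon lists, which gave 9 clusters. The chosen cells were found in all 9, and in 8 of them they made up 0.386 to 1.60% of the cells. Cluster 4, led by *Cxcl2*, *Hspa1a* and *Ccl4*, held 10 of 624 cells (1.60%, interval 0.771 to 2.93). Cluster 2, led by *Dcn*, *Apod* and *Col1a1*, held 14 of 935 (1.5%), and cluster 5, led by *S100a6* and *S100a4* with *Ccr2* among its leading genes, 7 of 578 (1.21%). Cluster 1, with a median of 1013 UMIs, held 7 of 1209 (0.579%). The intervals of these clusters overlap.

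Cluster 7, led by *Cd209f*, *Cd209g* and *Fcna*, held 1 interferon-responding cell of 259 (0.386%, interval 0.00977 to 2.13). Its other cells had the highest level of antiviral effectors among the clusters, at 5806 CPM, against 3151 to 4134 CPM in the others, and *Ly6e* was among its leading genes. Cluster 8, with *Acta2*, *Tagln* and *Mbp* among its leading genes, held the 6 cells with mural or Schwann RNA and no other of the 60, which was 6 of its 91 cells (6.59%, 2.46 to 13.8).

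**Figure D5:**
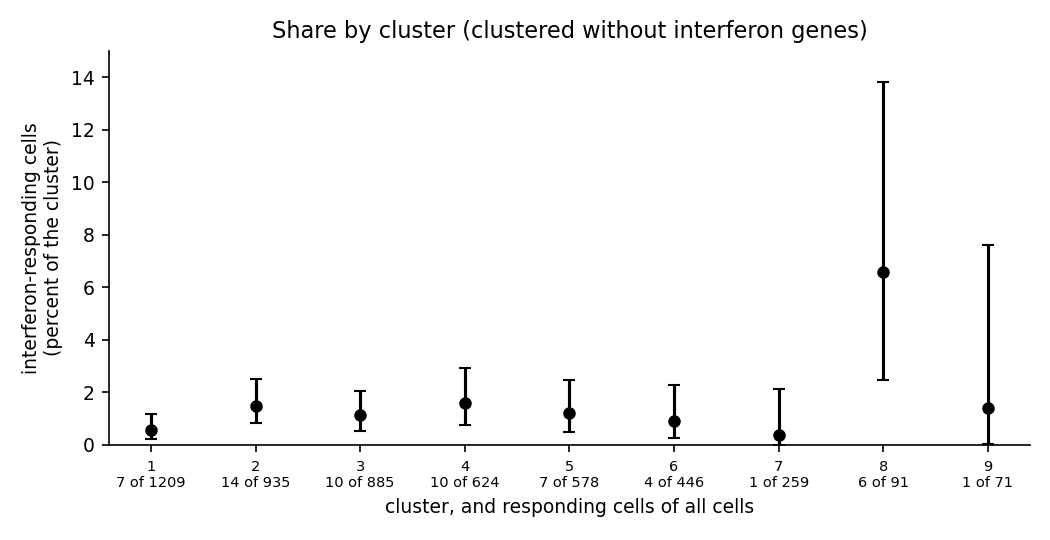
Percent of each cluster's cells that were interferon-responding, with exact binomial 95% intervals for counting error, for 9 clusters made without interferon genes, each given below the axis by its number and its counts. Clusters 1 to 7 and 9 lie between 0.386 and 1.60%, and cluster 8, which holds the mural and Schwann RNA, lies at 6.59%.

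The same letters were also searched in the promoter windows of the other lists, as a description. They stood in 15 of 40 antiviral effectors with a window (37.5%), 10 of 11 GTPases (90.9%), 10 of 18 sensors (55.6%) and 5 of 16 MHC class I genes (31.2%), 1 of 4 interferon-induced chemokines (25%) and 3 of 16 signalling genes (18.8%). Of the genes called higher, 18 of 63 with a window held them with 60 cells (28.6%) and 18 of 40 with 54 cells (45%), against 4.05% of the tested genes with a window. Among those called with 54 cells were *Ifi213*, *Ifi211*, *Ifitm3*, *Bst2*, *B2m* and *H2-T23*, while the window of *Oasl2* held no match.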

How the data were processed

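CD64+ CD45int macrophages of the SN were sequenced as 1 YFP- and 1 YFP+ library with 10x Chromium Single Cell v2. The authors deposited unfiltered matrices of raw UMI counts per gene and barcode (54838 genes, GRCm38), and the submitters' processing notes name Cell Ranger 3.0.2 and Seurat 2.2.0. The paper's methods name an earlier Cell Ranger version, and which of them made the matrices could not be settled. The study's filter on mapped reads was not used here, since the files hold UMIs. Barcodes with at least 500 UMIs and 200 genes were kept as cells, giving 2388400 and 6632360 UMIs in the other cells and 29639 and 115189 UMIs in the interferon-responding cells of the YFP- and YFP+ libraries. No doublet caller was run, and doublets were kept. The selection, the gene lists and the tests were chosen with earlier results of these data known.

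Counts were summed per library and class, and genes with at least 50 UMIs outside the rule were tested with edgeR 4.0.16 (R 4.3.3; quasi-likelihood test, library as a block, Benjamini-Hochberg adjustment over all genes tested, threshold 0.05). Composition factors (TMM) were taken over genes with at least 500 UMIs, a choice made after seeing the data. On simulated data factors over all tested genes were biased, in a run whose values are not reported here. Counts of 0 and 1 may be the cause, which was not isolated. The test then recovered 50 of 100 genes simulated at 2-fold and 100 of 100 at 4-fold, and called 3 of 9548 unchanged genes, over 9748 genes. The changed genes were drawn only from those with at least 500 UMIs, so recovery of rarer tested genes was not simulated. Simulated counts had a spread (dispersion) of 0.01, below the 0.0201 fitted to the data. Named genes were the 6 of the rule, of genes past the test with at least 20 CPM over all cells and the same direction in both libraries the 25 with the highest and the 10 with the lowest log2 ratio, the 4 most abundant members and every member past the test of each list, and *Ifnb1*, *Ifng*, *Ifnar1*, *Ifnar2*, *Stat2*, *Irf9* and *Usp18*. Not all list members past the test are printed, and some named genes are not reported here. *Ifit1*, *Mx1*, *Cxcl10*, *Ifih1*, *Ddx58*, *Tlr7*, *Ly6c2* and *Vcan* were named after their values were seen. Intervals are 95% and cover counting error only (exact Poisson for levels, Clopper-Pearson for shares, conditional exact binomial for ratios).

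Clusters were made with scanpy 1.11.5 and leidenalg 0.10.2 (2000 variable genes, 20 components, 20 neighbours, resolution 0.8) without 137 genes of the rule and the interferon lists. Alternatives were DESeq2 1.42.0, another threshold, depth, composition factor, filter, block and comparison set. Leaving out cells with 10 or more UMIs of other cell types, and TMM over all tested genes, were added after seeing the data. Lists for T and NK, B, neutrophil, mast, dendritic, plasmacytoid dendritic, fibroblast and endothelial cells and for the cell cycle held no call.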

Additional observations from a re-analysis of the deposited data

Results flagged for a closer look

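Among the listed and called genes, 4 had log2 ratios of interferon-responding over other cells of opposite sign in the 2 libraries with counting intervals off 0 in both. Each side is 1 library, so the difference was not tested. Other genes and lists had opposite signs as well, such as *Ifitm2*, whose intervals do not both lie off 0. *Cxcl2* gave a log2 ratio of -3.15 in the YFP- and 0.65 in the YFP+ library, where 1 cell held 38 of its 73 UMIs. *Ccl12* gave -1.98 in the YFP- and 1.30 in the YFP+ library, and its UMIs came from 22 of the 60 cells. *Retnla* gave 1.96 and -0.94, and 1 YFP- cell held 69 of its 132 UMIs. *Cd74*, the invariant chain of MHC class II, gave 0.35 and -0.14 with all 60 cells. The class II list as a whole was higher in both libraries once cells with 10 or more UMIs of other cell types were left out, at 52474 against 41811 CPM for YFP- and 60548 against 55004 CPM for YFP+.

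A signal was also seen outside the cells. In barcodes with 10 to 100 UMIs, the 6 selecting genes stood at 56.1 CPM for YFP- and 77.2 CPM for YFP+, above the 16.3 and 20.8 CPM of the cells that did not meet the rule and above the 28.5 and 55.3 CPM of all cells together.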

How the results depend on the processing

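Between the YFP- and YFP+ conditions no paired test was possible, because each is 1 library. The comparison of interferon-responding with other cells was made within each library, with the library as a block. At a threshold of 3 UMIs the shares were 0.478% (YFP-) and 0.493% (YFP+), and with every cell thinned to 500 UMIs 0.0957% and 0.321%. Against 82 genes higher and 5 lower, TMM over all tested genes called 53 and 10 and shifted the median of all genes by -0.28 (log2), so that 84.1% of calls were higher in place of 94.3%. DESeq2 called 15 and 0, a threshold of 3 UMIs 52 and 8, the 3 nearest cells in depth 22 and 0 (of 1570 genes tested), cells of 1000 to 3000 UMIs 22 and 0, leaving out cells with 2 or more UMIs of other cell types 12 and 0, and with 10 or more 49 and 5. Genes lower were 3 with no composition factor, 0 with no library block, 2 with a minimum of 1 UMI per gene, 1 with at least 1000 UMIs per barcode and 1 without the 2% deepest cells. Against 19 antiviral effectors called higher, the number called was 1 by DESeq2, 6 with the nearest cells, 12 at 1000 to 3000 UMIs and 6 without cells with 2 or more UMIs of other types. The 3 nearest cells tested fewer genes and the depth and cell-type settings used fewer cells, and the cause of the other changes was not tested. The 16 interferon-list genes among the 25 named as highest kept their direction in every setting in which they were tested, 6 of them with the nearest cells. They had been named for passing the test with 1 direction in both libraries. Of the 16, DESeq2 called 1, and 5 were called without cells with 2 or more UMIs of other types. Cells of 1000 to 3000 UMIs gave 11, a threshold of 3 UMIs 13, TMM over all tested genes 14 and leaving out the 2% deepest cells 15. Leaving out a library gave ratios with no test, of which 23 of 35 moved by more than 1 SE without the YFP+ and 8 without the YFP- library. Direction reversed at 1000 to 3000 UMIs for *Tagln* (-7.21), *Tpm1* (-0.26), *Irf9* (-0.60), *Ifnar1* (0.11) and *Ifnar2* (0.35). It reversed at 1000 or more UMIs for *Irf9* (-0.31), with the nearest cells for *Ifnar2* (0.41), without cells with 2 or more UMIs of other types for *Sparc* (-7.07) and *Ifnar2* (0.35), and with 10 or more for *Csrp1* (-0.16), *Cryab* (-0.24), *Sparc* (-0.24) and *Ifnar2* (0.0901). With 29639 UMIs in the YFP- interferon-responding cells, genes under 101 CPM could be missed there.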

Other observations

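Cells with exactly 1 UMI of the selecting genes, which the rule left out, held antiviral effectors at a median of 6.01 of every 1000 UMIs in the YFP- library (39 cells) and 5.32 in the YFP+ library (138 cells), against 3.45 and 3.43 in all cells that did not meet the rule. Among cells with 10 or more UMIs of mural, Schwann or other cell types, 1 of 11 YFP- cells (9.09%) and 5 of 68 YFP+ cells (7.35%, exact interval 2.43 to 16.3) met the rule. The 4 mural-marked cells held antiviral effectors at 28.2, 27.0, 12.6 and 14.8 of every 1000 UMIs, and the 2 Schwann-marked cells at 3.26 and 2.13. Much of this was 1 gene, *Ifi27l2a*, with 221 UMIs in these cells. In the mural-marked cell at 27.0 it gave 80 of 105 antiviral UMIs. A broad antiviral response of mural cells was not tested.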
